A study of Mus musculus with 9 samples.

Results

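Capillary endothelial cells of the adult mouse brain differed widely in their level of immediate early genes, and the cells with the highest level were set against those with the lowest. The cells were the 787 labelled capilEC among 1235 cells in all. For each cell the counts per 1000000 reads (CPM) of Fos, Fosb, Jun, Junb, Egr1, Ier2, Nr4a1 and Atf3 were summed, and within each plate the 25% of cells with the highest sum (the high group) were compared with the 25% with the lowest (the low group). This gave 195 cells in each, with 198 and 199 cells in a lower and an upper middle group. The cells were thus chosen by the measured level of these genes, and the 8 genes of the sum are described without being counted among the findings.

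The study isolated microvascular fragments from brains of adult mice, digested them to single cells, sorted the cells into plates of wells and sequenced each with Smart-seq2, which reads whole transcripts. All cells were untreated as far as the labels say, and strain, sex and exact age were not given. The capilEC cells were deposited as 1 sample and came from 4 plates, read from the prefix of each cell's name (s169s, s480s, s482s and s483s, with 223, 150, 198 and 216 capilEC cells). No animal was named, so cells and plates are not replicates here, no difference between groups was tested, and the ranges over plates below describe these cells only.

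Immediate early genes are switched on within minutes of a stimulus from factors already present in the cell, without new protein synthesis. Fos, Fosb, Jun, Junb and Atf3 encode subunits of the AP-1 and ATF transcription factors, Egr1 and Nr4a1 encode a zinc finger factor and an orphan nuclear receptor, and Ier2 encodes a nuclear protein of the same early wave. Their products are short-lived, and the same wave contains its own brakes, such as the phosphatase DUSP1, which switches off MAP kinases, and the RNA-binding protein ZFP36, which speeds the decay of early transcripts. Enzymatic digestion of tissue is itself known to switch these genes on, and in cells prepared this way its part and that of the living vessel cannot be told apart.

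The summed level ran from 7.31 to 16152 CPM, and no capilEC cell was at 0. Median sums in the high group were 3731, 3974, 3258 and 2146 CPM on plates s169s, s480s, s482s and s483s, and in the low group 103, 109, 91.3 and 45.3 CPM. The sum had no gap at the borders of the groups. On plate s169s the last cell inside the low group had 140 CPM and the first outside 144 CPM, while the first outside the high group had 2017 CPM and the last inside 2095 CPM. On the other plates the borders were 204 and 205, 171 and 172, and 75.7 and 75.7 CPM at the bottom, and 2086 and 2146, 1807 and 1843, and 1411 and 1438 CPM at the top. The groups are ranges of a measure cut at fixed ranks and are not named as types of cell here. Like values at such cuts do not show whether the cells fall into separate kinds, which was not tested. Among the 9 labels the median sum of capilEC, 554 CPM, lay near that of PC (516 CPM), above vSMC (401 CPM) and below vEC (1959 CPM) and aEC (1868 CPM), with the highest medians in aSMC (13137 CPM) and MG (17454 CPM).

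**Figure D1:**
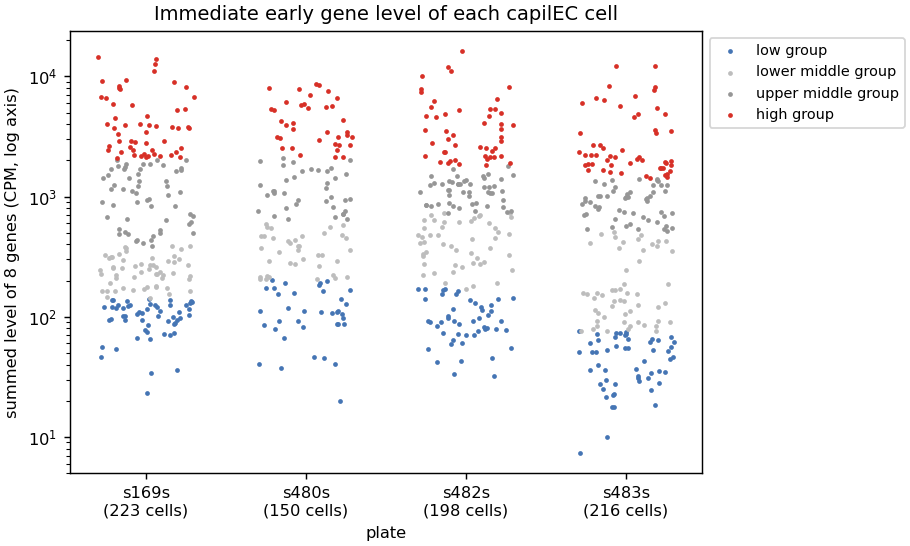
Summed level of the 8 immediate early genes (CPM, log axis) in each of the 787 capilEC cells, by plate, with 1 point for each cell and the group shown by colour. The low group has plate medians of 45.3 to 109 CPM and the high group of 2146 to 3974 CPM. No gap lies at the borders of these groups.

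The capilEC cells held 100364 to 750478 reads each, with a median of 192941. Depth differed between the groups and not in the same direction on every plate: the median cell of the high group held 144481 reads against 166889 in the low group on s169s, and 247000 against 195390 on s480s, 243677 against 173411 on s482s and 247669 against 184030 on s483s. After every cell was thinned to 100000 reads, the median cell held reads of 2805 genes in the high and of 2660 in the low group. Mitochondrial rows took 1.81% of the reads in the high group and 2.13% in the low group, and ribosomal RNA rows 1.27% and 1.45%. With the groups drawn separately within the deeper and the shallower cells of each plate, the log2 differences (defined with the comparison of all genes) were 2.54 for Dusp1, 2.09 for Zfp36, 1.56 for Btg2, 4.07 for Cyr61 and 3.98 for Hspa1a. Of the 59 higher and 40 lower genes of that comparison, 37 and 25 were counted then too. Among those that were not, Smg1 went from -1.28 to -0.78, under 1 log2 unit. Cse1l (1.81 to 1.18) and Rbpj (-1.50 to -1.01) kept that size. They failed another part of the rule, which is the same sign on all plates or a minimum.

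The genes of the sum itself differed as the choice of cells required. As means of the 4 plates, Fos stood at 1313 CPM in the high and 22.5 CPM in the low group, Ier2 at 867 and 11.97, Junb at 752 and 9.07, and Jun at 632 and 6.30. Egr1 stood at 313 and 21.6 CPM, Nr4a1 at 216 and 6.22, Atf3 at 118 and 6.04, and Fosb at 41.9 and 0.63. Fosb lay below the minimum level used for the other genes. The make-up of the sum shifted with its size. Egr1 gave 25.2% of the sum in the low group and 7.39% in the high group, and it was the leading gene of the sum in 55 of 195 cells of the low and 10 of 195 of the high group. Ier2 moved the other way, from 13.6% to 20.2%, and led in 15 cells of the low and 53 of the high group. Jun moved from 7.46% to 14.9%. Atf3 leaned on 1 plate, at 338 CPM in the high group of s169s against 33.6 to 63.0 CPM on the other plates.

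All other genes were then compared. A gene was compared when its mean over both groups was at least 25 CPM and at least 25% of the cells of both groups held a read, which 4676 genes met. Its difference is the mean over plates of log2((CPM in the high group + 5)/(CPM in the low group + 5)), called the log2 difference here, and a gene was counted when this was at least 1 log2 unit (2-fold) with the same sign on all 4 plates. By this rule 59 genes (1.26%) were higher and 40 (0.855%) lower in the high group, and the median over all genes compared was 0.01. Of the genes read in at least 50% of the cells, 9 of 1898 (0.474%) were higher and 4 (0.211%) lower, while of those read in 25 to 50% of cells 50 of 2778 (1.8%) were higher and 36 (1.3%) lower. The rule goes by size alone, so these are not numbers of changed genes. In simulated cells it counted nearly as many among the genes given no difference. Most of the counted genes came from the thinly read genes, where a few cells can carry a value. The minimum level applies to the mean of both groups, so a gene under 25 CPM in 1 group can enter through the other. Those that did so through the high group include Hspa1a, Cyr61, Junos, Dusp7, Sik1 and C1qc. Rbpj is among those that did so through the low group. The shares over all genes are the background for the counts in the gene lists below, and 51.1% of all genes lay above 0. At least 4-fold, 7 genes (0.15%) were higher and 0 were lower. These 7 include Junos, which overlaps Jun of the sum, and a predicted gene that overlaps Hspa1a on the other strand, so they are fewer than 7 separate signals outside the sum.

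**Figure D2:**
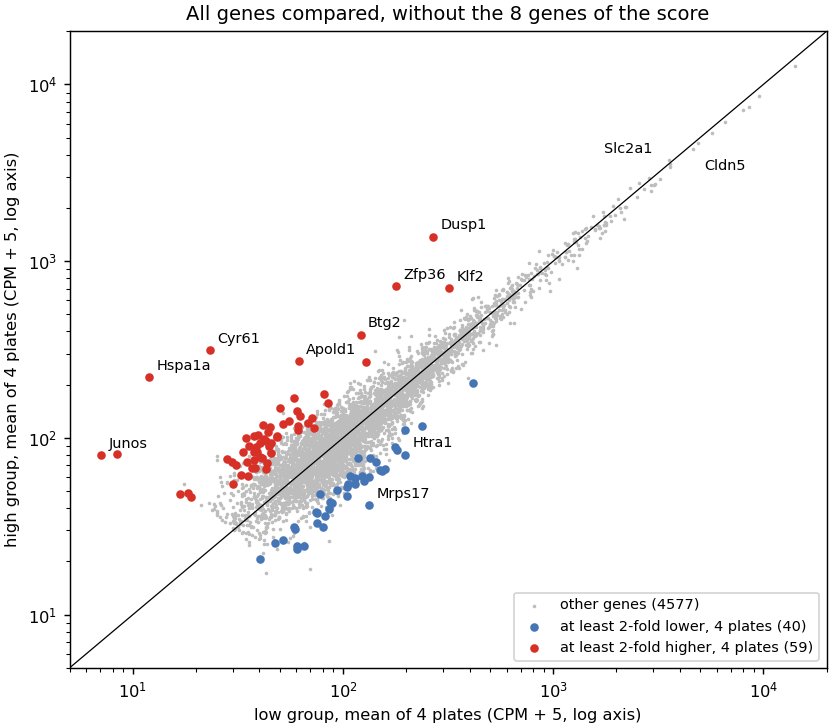
Mean level over 4 plates of each of the 4676 genes in the low group (horizontal) and the high group (vertical), both as CPM + 5 on log axes, with the 59 higher genes in red, the 40 lower genes in blue and the line of equal level. Dusp1, Zfp36, Btg2, Klf2, Apold1, Cyr61, Hspa1a and Junos stand clear of the cloud above the line, most other coloured points lie at its edge, and the barrier genes Cldn5 and Slc2a1 lie close to the line.

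The middle groups, which took no part in that comparison, showed how far the counted genes followed the sum in other cells. Between the lower and the upper middle group, 30 of the 59 higher genes stood higher in the upper middle and 29 lower, against 54.6% standing higher among all genes compared. On all 4 plates 8 of the 59 stood higher (13.6%), against 7.4% of all genes. Of the 40 lower genes, 20 stood lower and 3 did so on all 4 plates (7.5%), against 6.27% of all genes. As sets, the counted genes therefore moved little with the sum between the middle groups, with a median log2 difference of 0.03 for the higher genes. The 9 higher genes read in at least 50% of cells had a median of 0.30. Of these, 7 stood higher in the upper middle group, and Dusp1, Cyr61 and Klf2 did so on all 4 plates.

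Genes that restrain the early response were among those that differed alike on all plates. Dusp1, the dual specificity phosphatase that inactivates MAP kinases, stood at 1819, 1579, 1144 and 944 CPM in the high groups of s169s, s480s, s482s and s483s, and at 327, 279, 312 and 138 CPM in the low groups. Every high value lay above every low value, and the log2 difference was 2.38 (range over plates 1.86 to 2.73). Summed over plates, the levels were 1315 CPM (95% exact Poisson interval 1305 to 1326, counting error only) and 257 CPM (252 to 262). Reads copied by PCR and not marked by molecular identifiers are not independent, so the true error is wider. The median cell of the high group held 991 CPM of Dusp1 and the median cell of the low group 29.2 CPM, and the level climbed through the middle groups, at 281 and 524 CPM. Exons of Dusp1 overlap those of Ergic1 on the other strand, and the labels do not say whether the counting used strand.

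Zfp36, whose protein (tristetraprolin) binds AU-rich elements and recruits the machinery that shortens poly(A) tails, stood at 765, 796, 746 and 552 CPM in the high and 224, 199, 91.7 and 180 CPM in the low groups. The groups did not overlap, and the log2 difference was 2.07 (1.59 to 2.96). Unlike that of Dusp1, its level was flat below the high group, with 174 CPM in the low, 223 in the lower middle and 208 in the upper middle group. Btg2, an antiproliferative protein that binds the same deadenylating complex, stood at 639, 453, 215 and 211 CPM in the high and 184, 114, 87.9 and 79.0 CPM in the low groups. Its plates differed in level, and every high value lay above every low value, with a log2 difference of 1.58 (1.25 to 1.94). It too was flat below the high group, at 116, 124 and 139 CPM from the low to the upper middle group.

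The promoters of these feedback genes are shown beside that of Fos, because these 3 genes lie outside the sum and differed on each plate. Each line holds the 250 bases before the start of the gene in RefSeq (build GRCm38.p6), read 5′ to 3′ on the strand of the gene, with matches to 4 searched motifs in capitals. The motifs were the CArG box bound by serum response factor, TGACGTCA, the full cAMP response element, TGANTCA, the AP-1 element, and GCGNGGGCG, the EGR element, each searched on both strands, and none contains another. The windows lie at chr12:85473640-85473889 on the plus strand for Fos, and on the minus strand at chr17:26508473-26508722 for Dusp1, chr1:134079156-134079405 for Btg2 and chr7:28379229-28379478 for Zfp36.
Fos: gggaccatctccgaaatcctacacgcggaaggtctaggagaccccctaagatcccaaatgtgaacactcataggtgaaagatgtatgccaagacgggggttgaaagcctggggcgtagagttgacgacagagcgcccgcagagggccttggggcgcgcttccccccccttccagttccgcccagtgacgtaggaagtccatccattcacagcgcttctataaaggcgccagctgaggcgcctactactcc
Dusp1: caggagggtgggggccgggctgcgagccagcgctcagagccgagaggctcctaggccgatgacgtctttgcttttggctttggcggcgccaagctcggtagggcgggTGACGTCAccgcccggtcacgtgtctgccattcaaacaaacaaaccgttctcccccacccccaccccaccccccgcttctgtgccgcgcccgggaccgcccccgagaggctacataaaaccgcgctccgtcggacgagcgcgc
Btg2: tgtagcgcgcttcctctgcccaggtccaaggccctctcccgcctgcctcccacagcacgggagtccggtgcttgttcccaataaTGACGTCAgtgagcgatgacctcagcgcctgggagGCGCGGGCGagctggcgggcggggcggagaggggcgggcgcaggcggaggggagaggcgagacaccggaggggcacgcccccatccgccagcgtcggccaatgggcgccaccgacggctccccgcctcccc
Zfp36: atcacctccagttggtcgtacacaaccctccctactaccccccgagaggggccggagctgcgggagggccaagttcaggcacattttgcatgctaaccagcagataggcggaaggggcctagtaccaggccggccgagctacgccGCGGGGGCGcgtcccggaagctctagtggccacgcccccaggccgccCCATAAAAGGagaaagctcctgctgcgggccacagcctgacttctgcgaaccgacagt
In these windows the Dusp1 promoter held TGACGTCA beginning 143 bases before the start. The Btg2 promoter held TGACGTCA at 166 bases and GCGNGGGCG at 131 bases, and the Zfp36 promoter a CArG box at 58 bases and GCGNGGGCG at 105 bases. The Fos window held none of the 4 in full. Of the 15 genes named as higher, 11 had a window, and 3 of the 11 held TGACGTCA (Dusp1, Btg2 and, at 12 bases, Ppp1r15a), against 108 of the 3492 genes compared that had a window (3.09%). Over all higher genes it was 4 of 43 (9.30%), the fourth being Ccnl1, named here after its window was seen, and over the lower genes 0 of 31. The other motifs were found in 1 (CArG box), 1 (TGANTCA, in Junos) and 3 (GCGNGGGCG) of the 11, against 1.403%, 5.41% and 10.97% of the genes compared. Some genes have several windows, and a gene was counted when any of its windows held the motif. Junos held TGANTCA only in windows other than the one that overlaps the Jun window. Over all higher genes GCGNGGGCG was in 6 of 43 (13.95%) and over the lower genes in 6 of 31 (19.4%), and the CArG box was in 1 of each and TGANTCA in 2 and 1. Among the 8 genes of the sum, 6 had a window, of which 0 held a CArG box, TGACGTCA or TGANTCA and 2 (Fosb and Nr4a1) held GCGNGGGCG. A match describes letters and is not evidence of binding in these cells, and the windows are short.

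Other immediate early genes outside the sum were higher as well. Cyr61, which encodes the matrix protein CCN1, stood at 404, 202, 403 and 228 CPM in the high and 6.3, 1.8, 36.6 and 28.7 CPM in the low groups. The groups were far apart on each plate, with a log2 difference of 4.04 (2.79 to 5.17). Its middle groups lay between, at 24.2 and 71.6 CPM. Few cells carried it in quantity, since its median cell held 6.65 CPM in the high group and 0 in the low group. Ppp1r15a, the GADD34 subunit that reverses phosphorylation of eIF2 alpha, stood at 139, 152, 167 and 113 CPM in the high and 57.5, 2.4, 102.9 and 17.0 CPM in the low groups. Its high values were alike and its low values were not, so that the log2 difference of 2.18 ranged from 0.68 to 4.40. Gadd45g, a stress protein that binds cell cycle kinases, stood at 94.7 against 29.5 CPM (1.58, range 0.19 to 3.04) and the salt-inducible kinase Sik1 at 43.5 against 13.3 CPM (1.52, range 0.27 to 3.24). Both depended on how the groups were drawn: Gadd45g fell short when Fos was left out of the sum (0.57), and Sik1 with wider groups (0.45) and without s483s (0.95). They passed in 17 and 14 of the 23 alternatives. Exons of Ppp1r15a overlap those of Tulp2 on the other strand.

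Of the list of 30 other immediate early genes, 19 could be compared. Of these, 5 were higher (Cyr61, Ppp1r15a, Btg2, Gadd45g and Sik1) and 0 lower, where the shares over all genes were 1.26% and 0.855%. Cyr61 and Sik1 lay under 25 CPM in the low group and were compared through their level in the high group. The filter thus favoured their place in this count. The list's median log2 difference was 0.79, with plate medians of 0.56 to 1.01, and 18 of the 19 lay above 0, against 51.1% of all genes. Rhob, a small GTPase that is itself an early gene, just missed the rule at 0.99 (0.83 to 1.14), with 173, 462, 474 and 361 CPM in the high and 95.2, 206, 237 and 177 CPM in the low groups. Within each plate it was higher in the high group, although the values of different plates overlapped. Plk2, a polo-like kinase, had a larger mean (1.17) but went the other way on s480s (230.5 against 252 CPM). Id1 and Id3, inhibitors of helix-loop-helix factors and targets of BMP signals, stood at 969 against 759 CPM (0.31) and 1302 against 1262 CPM (0.05).

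Hspa1a, the stress-inducible HSP70, had the largest log2 difference of all genes compared outside the sum, 4.18 (3.26 to 4.80). It stood at 146, 285, 268 and 166 CPM in the high and 10.7, 7.7, 4.8 and 4.7 CPM in the low groups, with no overlap. At a fixed depth of 100000 reads, 54.4% of the cells of the high and 17.4% of the low group held a read of it. Its near-identical copy Hspa1b shares much of its sequence, so how reads were divided between the copies is uncertain, and a predicted gene that overlaps Hspa1a on the other strand was counted with it. Of 11 members compared in the list of heat shock genes and chaperones, Hspa1a was the 1 that was higher, against 1.26% of all genes. It was compared through its level in the high group. Of the 11, 10 lay above 0 (median 0.30), against 51.1% of all genes. Hsp90ab1 stood at 1326 against 1256 CPM (0.08), Hspb1 at 772 against 614 CPM (0.31), the endoplasmic reticulum chaperone Hspa5 at 345 against 294 CPM (0.26) and the constitutive Hspa8 at 341 against 292 CPM (0.21).

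**Figure D3:**
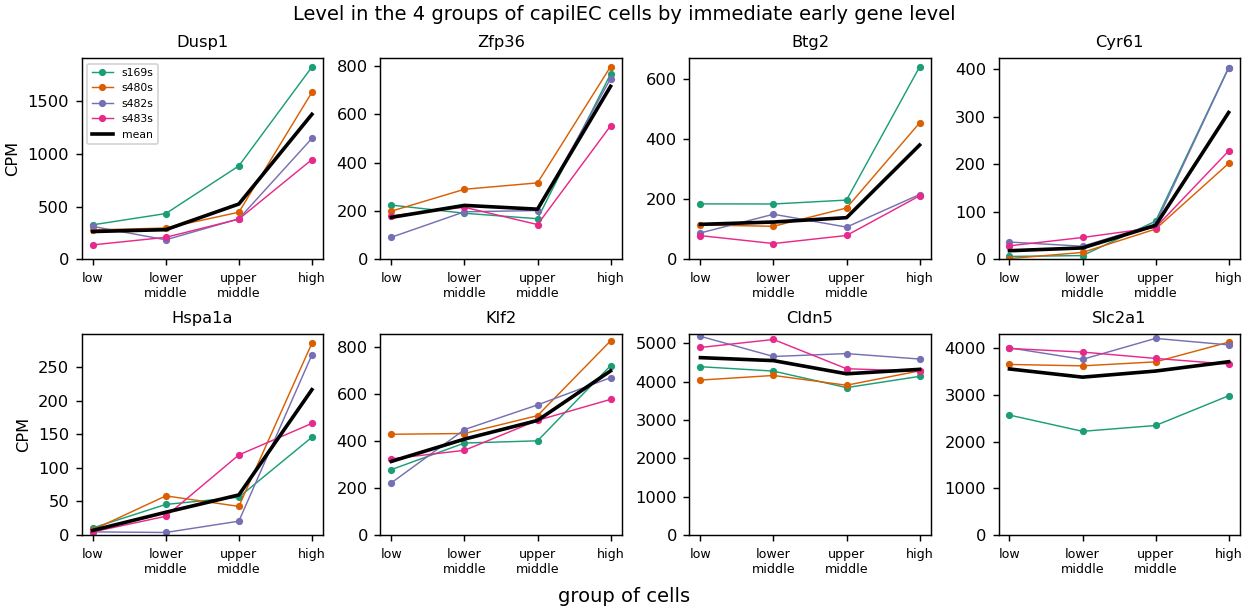
Level (CPM, linear axes from 0) of 8 genes in the 4 groups of capilEC cells, from low to high, with a thin line for each plate and a thick line for their mean. Dusp1, Cyr61 and Klf2 climb through the middle groups, Zfp36 and Btg2 stay flat until the high group, and the barrier genes Cldn5 and Slc2a1 are level throughout.

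Klf2, the Krüppel-like factor that laminar flow maintains in endothelium, was higher in the high group on every plate. It stood at 722, 828, 671 and 578 CPM in the high and 279, 430, 223 and 325 CPM in the low groups, with no overlap and a log2 difference of 1.17 (0.82 to 1.57). The difference between single cells was wider than between sums, since the median cell of the high group held 560 CPM and the median cell of the low group 22.9 CPM. Its middle groups stood at 409 and 489 CPM. It fell short of 2-fold with wider groups of 262 cells each (0.87) and when Fos was left out of the sum (0.88). Klf2 was the 1 member that was higher among 8 Krüppel-like factors compared, against 1.26% of all genes. Of the others, Klf6 stood at 269 against 199.8 CPM (0.43), Klf13 at 214 against 194 CPM (0.19) and Klf11 at 123 against 98.6 CPM (0.38), and the list's median was 0.40. In the list of flow-response genes, Klf2 and Adamts1, a secreted metalloprotease (120.0 against 50.3 CPM, 1.37, range 0.81 to 2.16), were higher, and the other 11 of 13 did not pass. Among all genes 1.26% were higher. Pecam1 (0.03), Sox18 (0.00) and S1pr1 (-0.01), the receptor for sphingosine 1-phosphate, stayed close to 0, and the list's median was 0.10. Apold1, an endothelial early gene, stood at 614, 233, 117 and 106.5 CPM in the high and 35.5, 82.5, 61.9 and 46.1 CPM in the low groups. Its log2 difference of 1.84 (0.87 to 3.93) was drawn up by plate s169s, without which it was 1.14.

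The remaining genes named by rank were read in fewer cells. Ggnbp2 (1.84, 0.67 to 3.20), the translation initiation factor Eif1a (1.82, 0.28 to 3.11), the nuclear exportin Cse1l (1.81, 0.36 to 3.04) and the DNA polymerase Polb (1.69, 0.10 to 2.83) each had a plate under 2-fold. The phosphatase Dusp7, which acts on ERK, stood at 70.6 against 23 CPM (1.67, 1.01 to 3.17) and was read in 25.4% of cells, and Atf2, a partner of Jun, at 111 against 39.7 CPM (1.59, 0.90 to 2.77). Ggnbp2 fell short when Fos was left out of the sum (0.73), Polb with reads summed over plates (0.72) and Atf2 with wider groups (0.79). Of the 23 alternatives, Ggnbp2 and Eif1a passed in 21, Atf2 in 20, Cse1l in 19, Dusp7 in 17 and Polb in 16. In Dusp7 the sign turned between the middle groups (-0.76). Junos, listed at 74.5 against 2.06 CPM (3.36), is antisense to Jun and overlaps its exons, so its reads and those of Jun, a gene of the sum, cannot be told apart. With the single cell of the largest count left out of each plate and group, Cyr61, Dusp1, Zfp36, Btg2 and Ppp1r15a still passed the rule. They were the 5 genes that passed under all 23 alternatives run.

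**Figure D4:**
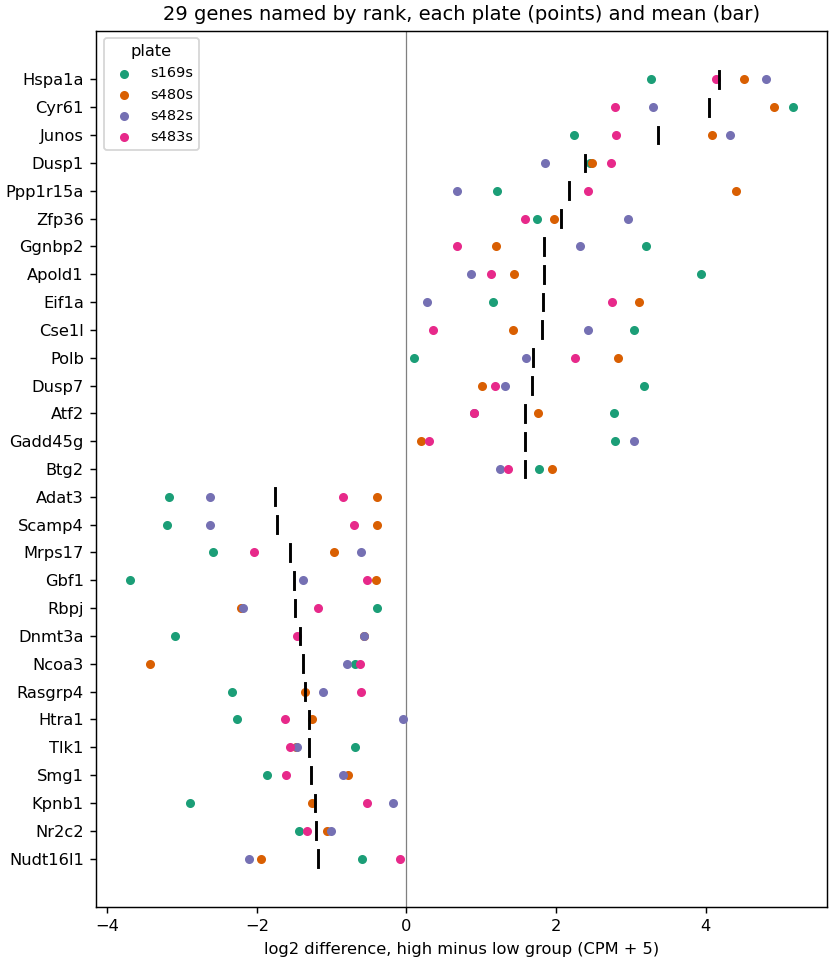
Log2 difference (high minus low group, on CPM + 5) of the 29 genes named by rank, with a point for each plate and a bar for their mean. The plates lie close together for Dusp1, Zfp36 and Btg2 and wide apart for most others, and the lower genes reach means of -1.76 to -1.18 with plates close to 0 in several.

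The lower genes named by rank had log2 differences of -1.76 to -1.18, and their plates were spread widely too. Adat3 (-1.76, -3.17 to -0.40) and Scamp4 (-1.74) share exons and are 1 signal. Mrps17, a protein of the mitochondrial ribosome, stood at 20.5 to 51.1 CPM in the high and 62.2 to 245 CPM in the low groups, with no overlap (-1.55, -2.58 to -0.61). It was the 1 lower gene that passed in each alternative except the one restricted to genes read in at least 50% of cells, for which it was read too rarely (43.6%). Rbpj, the DNA-binding effector of Notch, stood at 36.3, 14.6, 8.6 and 18.9 CPM in the high and 49.5, 85.9, 56.7 and 49.4 CPM in the low groups (-1.50, -2.21 to -0.40). The groups did not overlap, but it was read in only 29.2% of cells. The serine protease Htra1 stood at 75.4 against 192 CPM (-1.30), and on s482s the 2 groups were nearly equal (-0.05). Without plate s169s, Htra1 fell short at -0.98, as did Gbf1 (-1.51 with all plates, -0.77 without), the DNA methyltransferase Dnmt3a (-1.43 and -0.87) and the importin Kpnb1 (-1.22 and -0.66). Ncoa3 (-1.38) fell short without s480s (-0.70), and Nudt16l1 (-1.18) without s480s (-0.93) or s482s (-0.88). Rasgrp4 (-1.35), Tlk1 (-1.30), Smg1 (-1.28) and Nr2c2 (-1.21) kept at least 2-fold without any 1 plate, but Smg1 fell short with groups drawn within depth (-0.78), and Tlk1 (-0.91) and Nr2c2 (-0.78) without cells of raised microglial RNA. Of the 23 alternatives run, Tlk1 passed in 15, Smg1 in 16, Nr2c2 in 18 and Rasgrp4 in 20. None of these 14 genes was read in more than 47.9% of cells. Exons of Gbf1, Dnmt3a, Ncoa3, Tlk1, Nr2c2, Rasgrp4, Kpnb1 and Nudt16l1 overlap another gene on the other strand, so part of their reads may belong there.

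In the lists of pathways that work beside the early response, the counted genes were ones already named. The shares over all genes were 1.26% higher and 0.855% lower, and the lists are short. In the list of MAP kinase feedback genes, 4 of 17 could be compared, of which Dusp1 and Dusp7 were higher and Dusp3 (474 against 402 CPM, 0.38) and Dusp6 (179 against 147 CPM, 0.23) were not, with a median of 1.03. Dusp7 was compared through its level in the high group. In the list of ZFP36 and its partners in mRNA decay, Zfp36 and Btg2 were 2 of 9 compared, with a median of 0.70. The relative Zfp36l1 stood at 998 against 1057 CPM (-0.07) and Tob1, another adaptor of deadenylation, at 146 against 104 CPM (0.47). Of the AP-1 and ATF family members outside the sum, 4 of 15 could be compared and 0 passed. They were Atf4 (263 against 188 CPM, 0.40), Crem (98.1 against 70.4, 0.39), Creb1 (80.1 against 67.7, 0.22) and Jund (96.5 against 46.7, 0.68, with plates from -1.91 to 2.12). None of 7 other EGR and NR4A family genes reached the minimum level.

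Inflammatory and stress pathways showed few counted genes. Their lists are short, and at the shares over all genes (1.26% higher, 0.855% lower) few or none would be counted. The low counts therefore do not set these lists apart. Nfkbia, the inhibitor that NF-kB induces within minutes, stood at 1305, 901, 931 and 793 CPM in the high and 1155, 887, 851 and 811 CPM in the low groups (0.07, -0.03 to 0.18), so the groups overlapped. Of 6 NF-kB genes compared only Nfkb1 was higher (96.6 against 43.4 CPM, 1.26, with 0.01 on its lowest plate), which fell short without s169s (0.94) or s480s (0.90). The list's median was 0.03. Of 5 cytokine feedback genes Socs2, a suppressor of cytokine signalling, was higher (124 against 66.4 CPM, 1.08), but it fell short without s482s (0.87) or s483s (0.83), and without cells of raised microglial RNA it stood at 0.27. None of 8 genes of the unfolded protein response (median 0.06), 7 glucocorticoid targets (-0.05), 10 genes of hypoxia and glycolysis (0.14), 8 of oxidative stress (-0.06), 6 of apoptosis and p53 (0.06) or 12 of the interferon response (-0.19) passed in either direction. Of the 10 genes of hypoxia and glycolysis, 9 lay above 0, against 51.1% of all genes. Tsc22d3, a glucocorticoid-induced leucine zipper, stood at 298 against 221 CPM (0.42), and the metallothionein Mt1 at 427 against 503 CPM (-0.27). Of 12 targets of serum response factor and YAP, Cyr61 was higher and the actins Actb (3536 against 3576 CPM, -0.02) and Actg1 (1462 against 1271 CPM, 0.17) were not, with a median of 0.11.

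**Figure D5:**
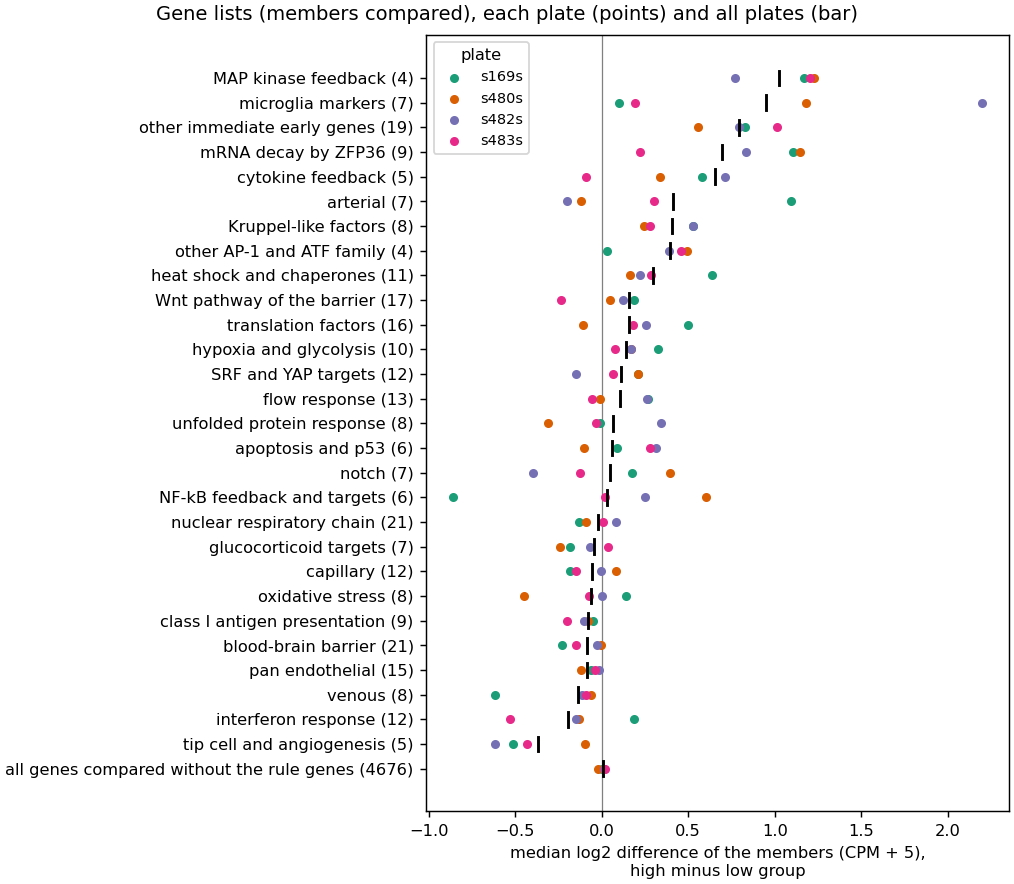
Median log2 difference (high minus low group, on CPM + 5) of the compared members of 28 gene lists and of all 4676 genes, with a point for each plate and a bar for the value over all plates, and the number of members in brackets. The lists of MAP kinase feedback, other early genes and mRNA decay lie at 0.70 to 1.03 with every plate above 0, barrier, capillary and pan-endothelial lists lie between -0.09 and -0.06, and the microglia markers spread from 0.10 to 2.20 over the plates.

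The genes that make these cells capillary and barrier endothelium differed little in size between the groups, with most barrier, capillary and pan-endothelial genes below 0. Of 21 genes of the blood-brain barrier compared, 0 passed in either direction, and 6 lay above 0, against 51.1% of all genes. The median was -0.09, with plate medians of -0.23 to -0.01. At the shares over all genes (1.26% higher, 0.855% lower), lists of this length would hold few or no counted genes. Cldn5, the main claudin of their tight junctions, stood at 4136, 4280, 4587 and 4271 CPM in the high and 4388, 4040, 5180 and 4889 CPM in the low groups (-0.09, -0.19 to 0.08). Slc2a1, the glucose transporter GLUT1, stood at 2980, 4127, 4068 and 3658 CPM in the high and 2567, 3650, 4005 and 3992 CPM in the low groups (0.07, -0.13 to 0.21). The groups overlapped for both. The organic anion transporters Slco1a4 (2897 against 3233 CPM, -0.16) and Slco1c1 (1785 against 1854 CPM, -0.06) did not pass either. None of 17 genes of the Wnt pathway that maintains the barrier passed (median 0.16), with Ctnnb1, which encodes beta-catenin, at 1792 against 1539 CPM and its partner Lef1 at 488 against 430.4 CPM. Likewise none of 15 pan-endothelial genes (median -0.09), such as Flt1 (2682 against 2906 CPM), and none of 12 capillary genes (median -0.06), such as Itm2a (4671 against 4858 CPM) and the carbonic anhydrase Car4 (1592 against 1741 CPM), passed. Of the pan-endothelial genes 4 of 15 lay above 0, of the capillary genes 3 of 12 and of the Wnt genes 11 of 17. Markers of the labelled cell type were thus present at like levels in both groups, leaning slightly lower in the high group.

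Zonation lists had no counted gene but were less even. The 7 arterial genes compared had a median of 0.41 that rested on plate s169s (1.09), and it was -0.06 without that plate. The 8 venous genes had a median of -0.14. Vwf, the von Willebrand factor gene and a venous marker, stood at 55.0, 306, 171 and 265 CPM in the high and 108, 452, 281 and 406 CPM in the low groups (-0.69, -0.91 to -0.56), lower on each plate but under 2-fold, and at -0.29 without cells of raised microglial RNA. Cells at the median arterial level of aEC numbered 8 in the high and 7 in the low group, and cells at the median venous level of vEC 2 and 2. Of 7 Notch genes, Rbpj was lower and 0 were higher, against 0.855% lower and 1.26% higher among all genes. The Notch target Hes1, itself a gene of early kinetics, stood at 459, 151, 240.2 and 205 CPM in the high and 266, 77.2, 124 and 139 CPM in the low groups (0.79, 0.54 to 0.93), higher on each plate and below the rule. The receptors Notch1 and Notch4 (68.5 against 139 CPM, -0.75) did not pass. Notch1 stood at 109, 561, 492 and 597 CPM in the high and 28.4, 1102, 650.4 and 694 CPM in the low groups, higher on s169s and lower on the other plates, so that its mean log2 difference was 0.05 although its mean level was lower in the high group. The list's median of 0.05 likewise went to -0.41 without s169s and to -0.39 with reads summed over plates. Of 16 genes of tip cells and angiogenesis 5 could be compared and 0 passed, with a median of -0.37, such as the basement membrane collagen Col4a1 at 231 against 330.0 CPM (-0.53).

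Housekeeping groups had no counted gene, with medians of -0.02 for 21 nuclear genes of the respiratory chain, 0.16 for 16 translation factors and -0.08 for 9 genes of class I antigen presentation. Among all genes 1.26% were higher and 0.855% lower. Of the translation factors 15 of 16 lay above 0, against 51.1% of all genes. Eef1a1, the elongation factor, stood at 1523 against 1412 CPM (0.10) and B2m, the light chain of class I, at 1693 against 1879 CPM (-0.16).

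Microglial RNA moved with the sum. Of 13 microglia markers 7 could be compared, all 7 with a log2 difference above 0, against 51.1% of all genes. Of the 7, 1 passed (C1qc, 41.0 against 13.9 CPM, 1.02, range 0.19 to 2.48, and 0.53 without s482s or 0.97 without s480s), against 1.26% of all genes. C1qc was compared through its level in the high group. The list's median was 0.95, with plate medians from 0.10 to 2.20. Its summed level was 553, 639, 883 and 157 CPM in the high and 472, 292, 159 and 155 CPM in the low groups, against a median of 46512 CPM in MG cells, and 0 of its markers were at 0. The 2 groups were nearly equal on s483s and far apart on s482s. Cells above 1% of the MG level numbered 51 in the high and 28 in the low group. MG cells carry Dusp1, Zfp36 and Btg2 at 2864, 4171 and 2354 CPM, and Cyr61, Hspa1a and Klf2 at 33.3, 122 and 344 CPM. When all 170 capilEC cells above 1% were left out before the groups were drawn, the microglial sum was 58.3 to 282 CPM in the high and 48.9 to 247 CPM in the low groups, and the median of its markers 0.15. The log2 differences were then 2.35 for Dusp1, 2.01 for Zfp36, 1.45 for Btg2, 4.03 for Cyr61, 2.25 for Ppp1r15a and 4.53 for Hspa1a, as large as or close to those with all cells. The counts were 82 higher and 56 lower genes, of which 35 and 18 were among the 59 and 40.

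Markers of other cells were low in both groups, apart from astrocyte markers in the low group of 1 plate. The 13 mural markers summed to 79.0 to 335 CPM in the high and 113 to 260 CPM in the low groups, the 12 astrocyte markers to 76.1 to 191 and 118 to 762 CPM, the 12 neuronal markers to 20.5 to 54.6 and 17.8 to 42.8 CPM, and the 12 oligodendrocyte markers, with Olig2 at 0, to 22.7 to 108 and 27.0 to 61.9 CPM. The astrocyte sum of 762 CPM was on s169s, where the high group stood at 159 CPM. Cells above 10% of the marker level of mural cells, microglia, fibroblasts or choroid plexus endothelium numbered 6 in the high and 4 in the low group. Astrocytes were not among the 9 labels, and no cells were left out by astrocyte markers. Whether Htra1, Gbf1, Dnmt3a and Kpnb1, which fell short without s169s, moved with astrocyte RNA was not tested. Of 12 proliferation genes 1 could be compared, and Mki67 was at 0 in both groups.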

How the data were processed

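RNA was measured in single cells. The deposited table holds counts, which are whole numbers of reads for every gene in every cell, and a deposited label names the type of each. The submitters' processing notes name Subread 1.4.6-p5, featureCounts and SAMtools 1.16.1 and both GRCm38 and GRCm39 as builds, without saying which step used them. The aligner's settings, the use of strand, doublet removal and how the cell labels were made are not given in the sources used here. All 787 capilEC cells were kept, 0 cells had counts identical to another cell's, and no doublet caller was run. The whole table has 46517 gene rows, 0 of them without a gene name.

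Counts were scaled to CPM over all gene rows and summed per plate and group, and differences use a pseudocount of 5 CPM. Python 3.11.15 (numpy 2.4.6, pandas 2.3.3, scipy 1.17.1) was used, with edgeR 4.0.16 and DESeq2 1.42.0 for scaling factors only. No test was run, since capilEC is 1 sample. The rule counts genes by size: in a self-test on cells simulated from each gene's mean and spread, genes given no difference were also counted, in total nearly as many as in the real cells, so the 59 and 40 are not numbers of changed genes. Some other genes were given set differences in the same simulation. The spread was taken over both groups and all plates together, so it includes any real difference between them. The 15 genes of largest difference in each direction were named, leaving out mitochondrial, ribosomal and predicted genes and pseudogenes, and 1 of the lower genes is not reported here. From each of 38 lists every member past the rule and otherwise the 4 of highest mean CPM were named. Outside that, Ccnl1, Hspa1b, Ergic1 and Tulp2 were named after their values or annotation were seen. The cells, lists and rules were chosen with earlier results of these data known. Exon overlaps come from GENCODE M21. The 23 alternatives cover scaling, pseudocount, filters, depth, plates, single cells, other cell types and the make-up of the sum, and 2 of them were chosen after seeing the data.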

Additional observations from a re-analysis of the deposited data

How the results depend on the processing

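No counted gene that was followed under the 23 alternatives changed sign, but the medians of 12 of 28 gene lists did. These lay at 0.14 or closer to 0, except the arterial list (0.41). The genes counted as higher and lower, 59 and 40, moved by over 1.5 times under several. The lower count fell to 21 with reads summed over plates. With a pseudocount of 20 CPM the counts were 25 and 9, and with no minimum share of cells 130 and 110. Thinning each cell to 100000 reads gave 37 higher genes, of which 24 were among the 59, and 31 lower genes, of which 6 were among the 40. Wider groups of 262 cells each gave 36 and 21. Leaving out the largest single cell of each gene gave 115 higher and 50 lower genes. With all cells kept and only genes read in at least 50% of cells, the counts were 9 and 4. With 1 plate left out, fewer plates have to share a sign, and the counts ranged from 96 to 119 higher and 66 to 115 lower. The higher genes numbered 114, 109, 96 and 119, and the lower genes 66, 115, 86 and 94, without s169s, s480s, s482s and s483s. TMM and DESeq2 factors gave 59 and 40 and 54 and 43. Higher genes made 59.6% of all counted genes, 55.7% with DESeq2 factors and 59.6% with TMM factors, and from 48.7% (without s480s) to 73.5% (pseudocount of 20 CPM) over all alternatives. Dusp1 ranged from 1.96 to 2.60, Zfp36 from 1.73 to 2.25, Btg2 from 1.30 to 2.03, Cyr61 from 3.15 to 4.58 and Hspa1a from 3.09 to 4.77. The groups were compared within plates throughout. No paired analysis was possible because capilEC is 1 sample, so that no test over replicates exists to which a block could be added. In genes read in under 50% of cells, a single cell can hold a large share of a gene's reads (32.1% for Hspa1a in the low group). Whether this comes from depth or from differences between cells was not tested.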
